A study of Homo sapiens with 4 samples.

Results

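The 7 genes described here encode the protein subunits of P-TEFb and of the 7SK snRNP that holds it in reserve. They are CDK9, CCNT1, CCNT2, HEXIM1, HEXIM2, LARP7 and MEPCE, picked by name from the 19901 protein-coding genes of the count table by a rule that holds no measured value. Earlier results of these data were nonetheless known when they were chosen. All 7 were found by gene symbol. P-TEFb is the kinase made of CDK9 and a cyclin T subunit, and it releases RNA polymerase II (Pol II) from promoter-proximal pausing by phosphorylating NELF, DSIF and the tail of Pol II. Much of the cell's P-TEFb is kept inactive in a ribonucleoprotein built on the noncoding RNA 7SK, where HEXIM1 or HEXIM2 inhibits the kinase, LARP7 protects the 3′ end of the RNA and MEPCE caps its 5′ end. KAP1, the protein encoded by TRIM28, has been placed at promoters together with this 7SK complex, which is why its subunit genes are of interest after KAP1 loss. The 7SK RNA itself was not analysed here.

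Nascent transcription was measured by TT-Seq in HCT116 cells, a human colon cancer line. TT-Seq labels new RNA with a short pulse of 4-thiouridine (4sU), pulls down the labeled RNA and sequences it. All cells were of the genotype KAP1_dTAG_CloneD5, a line grown from a single sorted cell in which KAP1 carries a degron tag, so that the ligand dTAG sends the KAP1 protein to the proteasome. Cells received DMSO (vehicle, 2 libraries) or dTAG (500 nM dTAG-13, 2 libraries) for 8 h and then 500 μM 4sU for 10 min. DMSO-treated cells carried the same tag on KAP1, each library pooled several dishes, and the study's methods call the 2 libraries of a condition biological replicates. The labels do not say whether they came from separate cultures, and p-values measure the spread between these libraries.

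Counts on genes were between 93105627 and 102314741 per library. A count of at least 50 in every library was required for testing, which 12612 genes met, and all 7 subunit genes were among them, with 553 to 18501 counts per library. Of the epithelial markers, EPCAM, CDH1, KRT8, KRT18, KRT19 and CDX2 were between 19.0 and 438 CPM (counts scaled to library size) in every library, while VIL1 had 1 to 15 counts. Of the markers of other cell types, PTPRC had 0 or 1 count, ALB 3 to 15 and PECAM1 24 to 39, and COL1A1 had 4.65 to 5.43 CPM. TRIM28 had 61.7 and 69.8 CPM with DMSO and 53.5 and 47.9 CPM with dTAG, with a log2 fold change of -0.37 (adjusted p 0.019, edgeR), or -0.10 (adjusted p 0.17) with each library's trend on GC content and gene length removed. Because dTAG acts on the protein, TRIM28 RNA does not check the labels. The DMSO libraries differed from each other along GC content, the share of G and C bases over a gene. In DMSO replicate 2 against DMSO replicate 1, the median log2 ratio was -0.20 for the 3071 tested genes with up to 40% GC and 0.23 for the 2068 genes above 55% GC. DMSO replicate 2 also held the highest share of ERCC spike-in counts, 0.0265% against 0.0103% to 0.0150% in the other libraries.

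To see how strongly each subunit gene is transcribed in control cells, CPM were divided by gene length in kilobases. HEXIM1 had the highest level per length of the 7, at 9.80 ± 0.511 CPM per kb with DMSO (SD, n = 2), higher than in 95.9% of all tested genes. CDK9, the kinase, followed at 7.07 ± 0.751, MEPCE at 6.77 ± 1.26 and CCNT1, which encodes cyclin T1, at 6.11 ± 0.115 CPM per kb. These 3 genes did not separate as neighbors, since the DMSO libraries of CDK9 and MEPCE overlapped, as did those of MEPCE and CCNT1. CCNT2, which encodes the alternative cyclin T2, was at 3.14 ± 0.33, LARP7 at 1.61 ± 0.0921 and HEXIM2 at 0.848 ± 0.138 CPM per kb. The median of all tested genes was 1.06 CPM per kb, so that HEXIM2 alone lay below it. HEXIM1 lay above CDK9, CCNT1 above CCNT2, CCNT2 above LARP7 and LARP7 above HEXIM2 in each of the 4 libraries. Levels per length compare genes of very different structure. HEXIM1 is a single exon, whereas any annotated exon covers between 21.5% and 62.4% of the interval of each of the others, and the counts do not separate spliced from unspliced RNA.

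**Figure D1:**
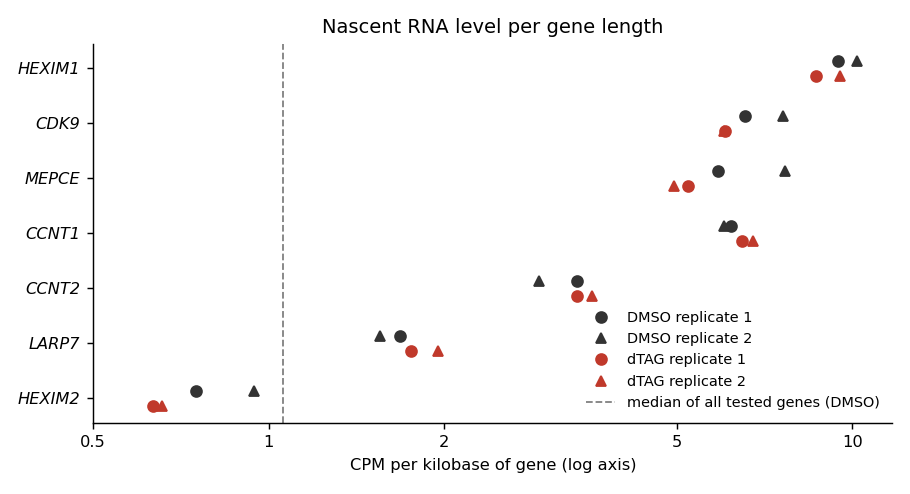
Level of each subunit gene per gene length, in CPM per kilobase on a log axis, with 1 point per library (black, DMSO; red, dTAG; circles, replicate 1; triangles, replicate 2). HEXIM1 lies highest and HEXIM2 lowest, and only HEXIM2 lies below the dashed median of all tested genes in DMSO (1.06 CPM per kb).

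HEXIM1 and HEXIM2 are neighbors on chromosome 17 of hg38, both on the plus strand, with 8597 bp between them. HEXIM1 (ENSG00000186834.3) spans 45148501 to 45152101 and HEXIM2 (ENSG00000168517.10) spans 45160699 to 45170040. Because these adjacent paralogs had such different levels, the 250 bases before a RefSeq start of each gene (GRCh38.p14) are shown, chr17:45148225-45148474 for HEXIM1 and chr17:45161625-45161874 for HEXIM2. The HEXIM1 window lies before the counted interval of its gene, whereas the HEXIM2 window shown lies inside the counted interval of HEXIM2. Both are written 5′ to 3′ on the plus strand, with matches to the searched motifs in capitals.
HEXIM1: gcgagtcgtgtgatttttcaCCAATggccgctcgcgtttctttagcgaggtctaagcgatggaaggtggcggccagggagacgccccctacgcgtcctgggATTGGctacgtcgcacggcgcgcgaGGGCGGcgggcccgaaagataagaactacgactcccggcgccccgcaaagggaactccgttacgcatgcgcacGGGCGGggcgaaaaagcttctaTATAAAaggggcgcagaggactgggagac
HEXIM2: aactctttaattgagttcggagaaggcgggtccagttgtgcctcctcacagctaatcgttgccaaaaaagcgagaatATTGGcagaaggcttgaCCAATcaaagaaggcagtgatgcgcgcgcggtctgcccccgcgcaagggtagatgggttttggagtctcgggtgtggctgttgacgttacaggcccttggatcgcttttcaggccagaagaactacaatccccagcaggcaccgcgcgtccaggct
The motifs searched on both strands were the TATA box (TATAAA), the NF-Y site (CCAAT), the GC box (GGGCGG), the E-box (CACGTG), the AP-1 site (TGACTCA), the CRE (TGACGTCA) and the ETS site (CCGGAAG), and no matches overlapped in these windows. The HEXIM1 window held TATAAA at -29 from the start, GGGCGG at -124 and -51, and CCAAT at -230 and, on the other strand, at -149, counted at the first base of each match. No other subunit gene had TATAAA in its windows, and 10.7% of all 35116 windows of this length held it. GGGCGG was in 42.6% of them and CCAAT in 32.0%. The HEXIM2 window held CCAAT at -156 and, on the other strand, at -173, and none of the other motifs. A second RefSeq start of HEXIM2, with the window chr17:45159924-45160173, had a GC content of 36.0% and no match, against 62.4% for the HEXIM1 window and 55.2% for the HEXIM2 window shown. A match describes the letters only, and no binding was measured here.

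Acute KAP1 depletion was then compared with DMSO for each subunit gene. MEPCE fell by 24.9%, and the other 6 genes did not pass the test. With each library's trend on GC content and gene length removed, the log2 fold change of MEPCE was -0.14 in place of -0.41 and it was not called (adjusted p 0.19, edgeR). In bulk RNA, less RNA per cell and fewer cells that make it cannot be told apart. Thus 1 of 7 subunit genes was called, where 7.10% of all tested genes were called at an adjusted p under 0.05. P-values are from the quasi-likelihood F test of edgeR, adjusted over all tested genes by the Benjamini-Hochberg method. By direction, 0 of 7 were called higher, beside 3.44% of all tested genes, and 1 of 7 was called lower, beside 3.66%. None was called with a change of at least 1.5-fold, as 1.64% of all tested genes were. Both dTAG libraries lay on one side of both DMSO libraries for 6 of the 7 genes, and for 58.8% of all tested genes. The median log2 fold change was -0.107 for the 7 genes and -0.015 for all tested genes.

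**Figure D2:**
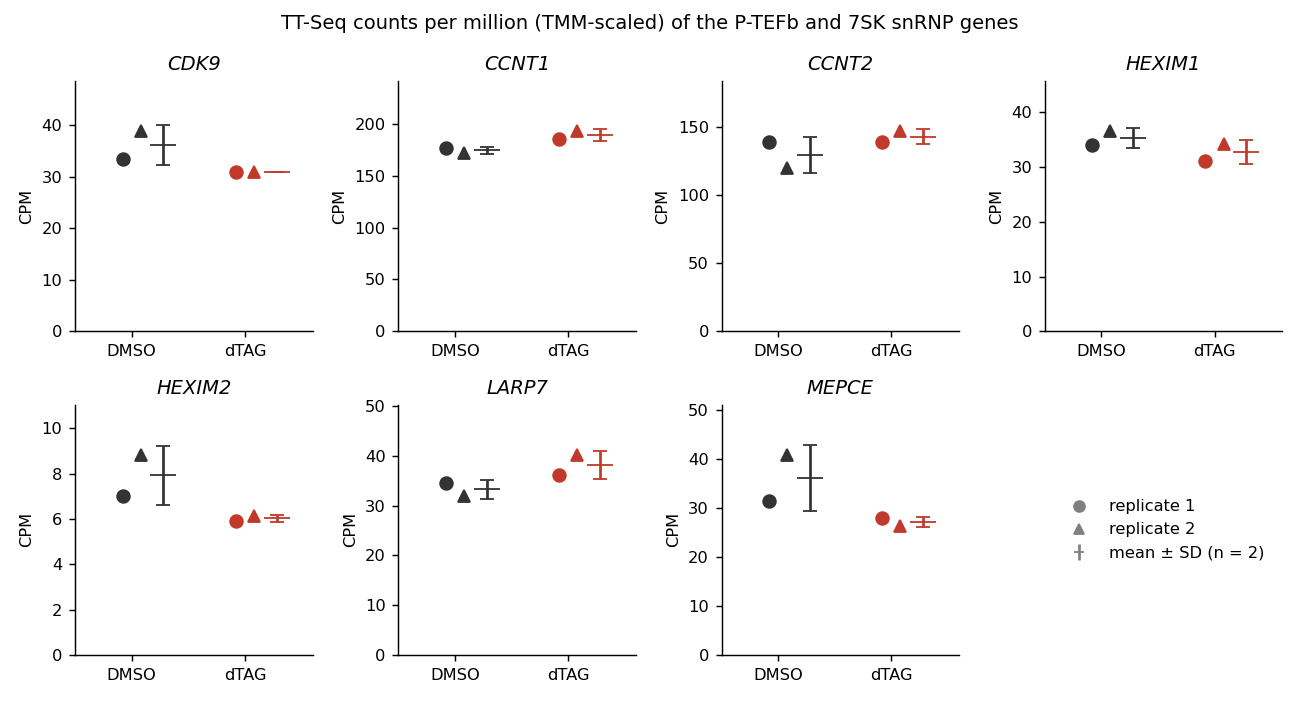
TMM-scaled CPM of each subunit gene in each library, with the mean and SD of 2 libraries beside the points (black, DMSO; red, dTAG), each panel starting at 0. MEPCE falls from 31.4 and 40.9 CPM with DMSO to 27.9 and 26.4 CPM with dTAG, and the groups overlap for HEXIM1.

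CDK9 (ENSG00000136807.13, chromosome 9 from 127785678 to 127790787) encodes the catalytic subunit of P-TEFb. It had 33.4 and 38.9 CPM with DMSO and 30.9 and 30.9 CPM with dTAG. Both dTAG libraries were lower than both DMSO libraries, and the dTAG libraries were close to each other while the DMSO libraries were not. The log2 fold change was -0.23 (standard error 0.101) and its 95% interval ran from -0.44 to -0.02, at an unadjusted p of 0.0364 and an adjusted p of 0.16 in edgeR. CDK9 overlaps the microRNA genes MIR3960 and MIR2861 on its own strand. Without DMSO replicate 2, the log2 fold change was -0.11.

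CCNT1 (ENSG00000129315.10, chromosome 12 from 48688457 to 48716998) encodes the cyclin subunit that HIV-1 Tat binds. Its libraries had 177 and 172 CPM with DMSO and 185 and 193 CPM with dTAG, so that the dTAG libraries were slightly higher and did not overlap with DMSO. The log2 fold change was 0.11 (standard error 0.086) and its 95% interval ran from -0.06 to 0.29, at an adjusted p of 0.40 in edgeR. CCNT2 (ENSG00000082258.12, chromosome 2 from 134918234 to 134959342) had 139 and 120 CPM with DMSO and 139 and 147 CPM with dTAG. DMSO replicate 1 and dTAG replicate 1 were all but equal, and DMSO replicate 2 was the low library. Its log2 fold change was 0.15 (standard error 0.0899) and its 95% interval ran from -0.04 to 0.34, at an adjusted p of 0.29 in edgeR, and was 0.04 without DMSO replicate 2. The first 479 bp of CCNT2 overlap the antisense lncRNA CCNT2-AS1, and CCNT1 overlaps no annotated gene. The ratio of CCNT1 to CCNT2 per length was 1.83 and 2.07 with DMSO against 1.91 and 1.89 with dTAG, with overlap between the groups.

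HEXIM1 encodes the main P-TEFb inhibitor of the 7SK complex and is itself known to rise when P-TEFb is released. It had 34.0 and 36.6 CPM with DMSO and 31.2 and 34.3 CPM with dTAG, and the groups overlapped. The log2 fold change was -0.11 (standard error 0.0987) and its 95% interval ran from -0.31 to 0.10, at an adjusted p of 0.50 in edgeR. The upper end of the interval was 0.16 with the GC and length trend removed, 0.29 without dTAG replicate 1 and 1.6 with ERCC totals. HEXIM2, the second inhibitor, had the fewest counts of the 7, with 7.01 and 8.83 CPM with DMSO and 5.92 and 6.13 CPM with dTAG. Both dTAG libraries were lower than both DMSO libraries. Its log2 fold change was -0.39 (standard error 0.159) and its 95% interval ran from -0.72 to -0.06, at an unadjusted p of 0.0215 and an adjusted p of 0.12 in edgeR, and was -0.22 without DMSO replicate 2. The antisense lncRNA HEXIM2-AS1 overlaps 1702 bp of HEXIM1 and 840 bp of HEXIM2. Another antisense lncRNA, ENSG00000267288, overlaps 1241 bp of HEXIM2. The strand setting of the counting is not given in the sources used here, so that reads of antisense genes cannot be told apart from those of the subunit genes.

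LARP7 (ENSG00000174720.15, chromosome 4 from 112636963 to 112657592) encodes the La-related protein bound to 7SK throughout its life. It had 34.6 and 31.9 CPM with DMSO and 36.2 and 40.2 CPM with dTAG, with both dTAG libraries above both DMSO libraries. The log2 fold change was 0.20 (standard error 0.0985) and its 95% interval ran from -0.01 to 0.40, at an adjusted p of 0.20 in edgeR. An antisense microRNA host gene, MIR302CHG, lies inside LARP7 over 3576 bp, and ZGRF1 overlaps its first 33 bp on the opposite strand.

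MEPCE (ENSG00000146834.13, chromosome 7 from 100428789 to 100434126) encodes the methyltransferase that caps 7SK. Its counts were 3108 and 4080 with DMSO and 2796 and 2381 with dTAG, which are 31.4 and 40.9 CPM and 27.9 and 26.4 CPM. Both dTAG libraries were lower than both DMSO libraries, and DMSO replicate 2 stood well above the other 3 libraries. The log2 fold change was -0.41 (standard error 0.114) and its 95% interval ran from -0.65 to -0.17, at an adjusted p of 0.034 in edgeR. When 1 library is left out, its group is a lone library that is assumed to vary like the other group. The call was then lost except without DMSO replicate 1, with -0.21 (adjusted p 0.13) without DMSO replicate 2, -0.45 (adjusted p 0.23) without dTAG replicate 1 and -0.37 (adjusted p 0.76) without dTAG replicate 2 in the same edgeR test. Without DMSO replicate 1 the value was -0.59 (adjusted p 2.5e-09). MEPCE overlaps ZCWPW1 over 204 bp on the opposite strand, and GENCODE 44 places the gene model ENSG00000289690, which was not in the count table, over 5319 bp of it on the same strand.

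Interval widths show what could be detected with 2 libraries per condition, and they depend on the scaling. Under TMM, the 95% interval of CDK9, CCNT1, CCNT2, HEXIM1 and LARP7 lay within a 1.5-fold change either way (0.585 on the log2 scale). For HEXIM2 and MEPCE it reached past a 1.5-fold decrease. With ERCC totals, the intervals of all subunit genes reached past a 1.5-fold increase, as from -0.58 to 1.48 for CDK9 and from -0.21 to 1.89 for LARP7. The log2 difference of DMSO replicate 2 over DMSO replicate 1, libraries that the dTAG comparison also uses, was 0.38 for MEPCE, 0.33 for HEXIM2 and 0.22 for CDK9, about as large as their changes with dTAG. Between the dTAG libraries, the log2 difference of replicate 2 over replicate 1 was between -0.08 for MEPCE and 0.15 for LARP7.

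The direction of the subunit genes went with their base composition. MEPCE (58.8% GC), CDK9 (57.4%), HEXIM2 (53.4%) and HEXIM1 (48.2%) were the 4 genes with a negative log2 fold change under TMM scaling, and all lie above 45% GC. The genes with a positive value, CCNT1 (40.9%), LARP7 (37.9%) and CCNT2 (37.5%), all lie below it. Over all tested genes, the median log2 fold change went from 0.13 at up to 40% GC to -0.23 above 55%. The genes with a negative value were also the short ones, between 3.6 kb for HEXIM1 and 9.34 kb for HEXIM2, against 20.6 kb for LARP7, 28.5 kb for CCNT1 and 41.1 kb for CCNT2. After that trend was removed, the value of HEXIM2 was -0.20 (adjusted p 0.25, edgeR) beside the -0.14 of MEPCE. CDK9 moved to 0.03, HEXIM1 to 0.0019, CCNT2 to 0.01, CCNT1 to 0.04 and LARP7 to 0.09. None of the 7 genes was called then, where 18.1% of all tested genes were, and their unadjusted p-values in edgeR were between 0.0684 for MEPCE and 0.98 for HEXIM1. The trend was fitted in each library, those with dTAG included. Its removal therefore also takes out any difference with dTAG that follows GC content or gene length. Whether the gradient comes from the libraries or from the cells was not tested.

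**Figure D3:**
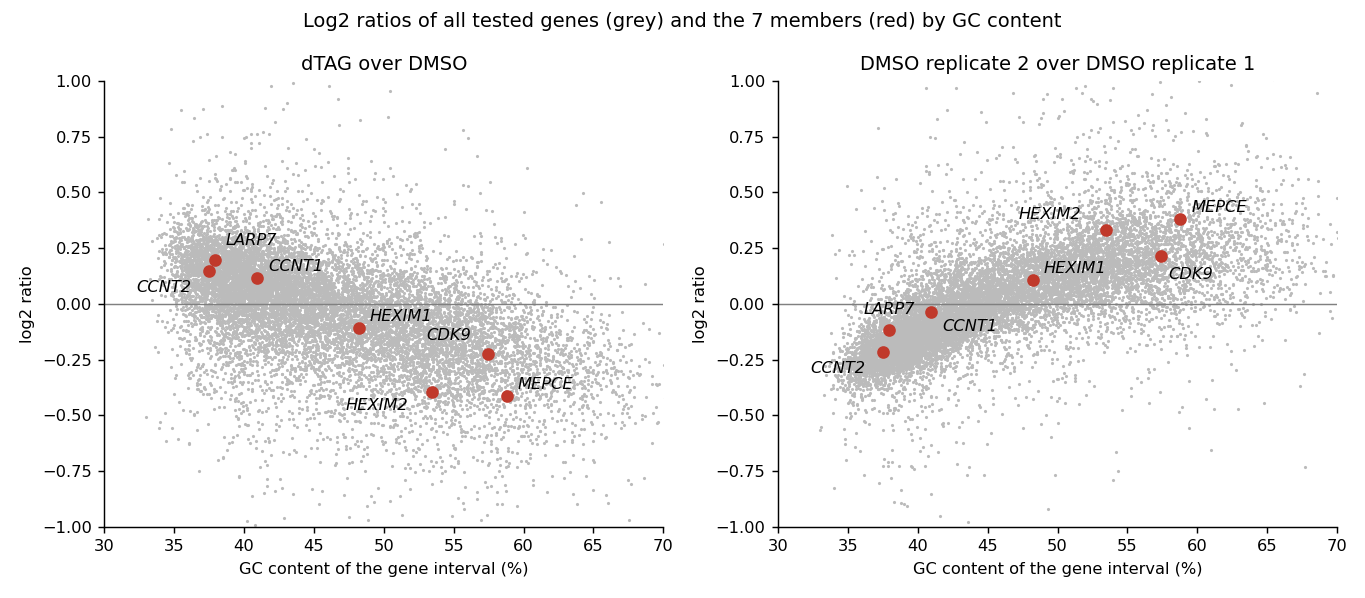
Log2 ratio against GC content of the gene interval (percent) for all tested genes in grey and the 7 subunit genes in red, with dTAG over DMSO on the left and DMSO replicate 2 over DMSO replicate 1 on the right; genes beyond the axes (30 to 70% GC, -1 to 1) are not drawn. The values of the subunit genes tend to go down with GC content on the left and up with it on the right, MEPCE lying at -0.41 and 0.38. HEXIM2 (53.4% GC, -0.39 and 0.33) lies farther from 0 than CDK9 (57.4% GC, -0.23 and 0.22). Both panels use the DMSO libraries, with DMSO replicate 2 on opposite sides of the ratio, so that opposite signs are partly built in.

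Ratios between subunits within a library do not depend on how libraries are scaled. The ratio of HEXIM1 to CDK9, inhibitor to kinase, per length was 1.44 and 1.34 with DMSO and 1.43 and 1.58 with dTAG, and the groups overlapped. Adding HEXIM2 to HEXIM1 gave 1.56 and 1.46 with DMSO and 1.54 and 1.69 with dTAG, with overlap as well. The ratio of HEXIM1 to HEXIM2 was 12.6 and 10.7 with DMSO and 13.7 and 14.5 with dTAG, a difference of 0.28 on the log2 scale without overlap. HEXIM1 over CCNT1 was 1.52 and 1.68 with DMSO and 1.34 and 1.41 with dTAG, a log2 difference of -0.22 without overlap. LARP7 over MEPCE, both constitutive partners of 7SK, differed most between conditions, from 0.285 and 0.202 with DMSO to 0.335 and 0.394 with dTAG, or 0.60 on the log2 scale. In the exact permutation test over 4 libraries (two-sided), these 3 ratios had p = 0.333, the smallest value that this test can give for 2 against 2, so that it could not pass 0.05. The other 3 of the 6 ratios compared had p = 0.667 or 1 in the exact test, and after Benjamini-Hochberg adjustment over the 6 the smallest value was 0.667. Without DMSO replicate 2, the difference was 0.35 for LARP7 over MEPCE and 0.16 for HEXIM1 over HEXIM2. With the GC and length trend removed, the differences were 0.21 for HEXIM1 over HEXIM2, -0.04 for HEXIM1 over CCNT1 and 0.23 for LARP7 over MEPCE.

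The wider pathway was described with 32 genes in 4 lists. For the factors of the super elongation complex, which recruit P-TEFb, 8 of 11 genes passed the count minimum, and AFF2, AFF3 and ELL3 did not. In this list 0 genes were called higher and 1 lower, MLLT3, which encodes the YEATS-domain subunit AF9. MLLT3 had 45.8 and 39.0 CPM with DMSO and 32.0 and 33.4 CPM with dTAG, and its log2 fold change was -0.38 (standard error 0.10, edgeR, adjusted p 0.028). Unlike MEPCE, MLLT3 is long and poor in GC (281 kb, 37.1%), and with the GC and length trend removed its value was -0.52 (adjusted p 5.5e-05 in edgeR). Its value was -0.34 without dTAG replicate 1 (adjusted p 0.41, edgeR) and -0.41 without dTAG replicate 2 (adjusted p 0.58), where the spread comes from the DMSO libraries alone. ELL2, a Pol II elongation factor of the same complex, had the highest value of the list, 0.19. The median was 0.032.

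Of the 8 genes for proteins that bind 7SK or release P-TEFb from it, 0 were called. The highest was DDX21, a helicase that frees P-TEFb from 7SK, with 332 and 328 CPM with DMSO and 400 and 403 CPM with dTAG. Its log2 fold change of 0.28 had an adjusted p of 0.065 in edgeR and 0.0092 in DESeq2. JMJD6, a JmjC-domain oxygenase, was lowest at -0.25 (adjusted p 0.081, edgeR). Of the 7 genes for P-TEFb substrates, subunits of DSIF, NELF and Pol II, 0 were called, and all 7 values were below 0, as were those of 52.3% of all tested genes. They ran from -0.04 for SUPT5H to -0.24 for SUPT4H1 (adjusted p 0.094, edgeR). The median GC content of this list was 49.6%. With the trend removed, SUPT5H was at 0.06, while SUPT4H1 was at -0.16 and called (adjusted p 0.044, edgeR). With ERCC totals, SUPT5H and SUPT4H1 were at 0.62 and 0.41, where the median over all tested genes was 0.633. That scaling applies the same factor to all genes of a library, so their places against the median were largely fixed beforehand. Of the 6 genes for other transcription kinases and their cyclins, 0 were called, with values from -0.18 for CDK12 to 0.26 for CCNH, the cyclin of TFIIH. Over the 4 lists, 29 genes were tested and 1 was called, beside 7.10% of all tested genes. An unadjusted p under 0.05 in edgeR was found for 10 of the 29 and for 26.6% of all tested genes, and the median log2 fold change was 0.007. With the GC and length trend removed, 10 of the 29 were called, 5 higher and 5 lower, where 18.1% of all tested genes were called. Those called higher were CDK7, SYNCRIP, MLLT1, DDX21 and ELL, and those called lower were MLLT3, CDK12, SUPT4H1, AFF1 and JMJD6. The lists were chosen with earlier results of these data known, so that such counts beside the share of all tested genes are no test of the lists.

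**Figure D4:**
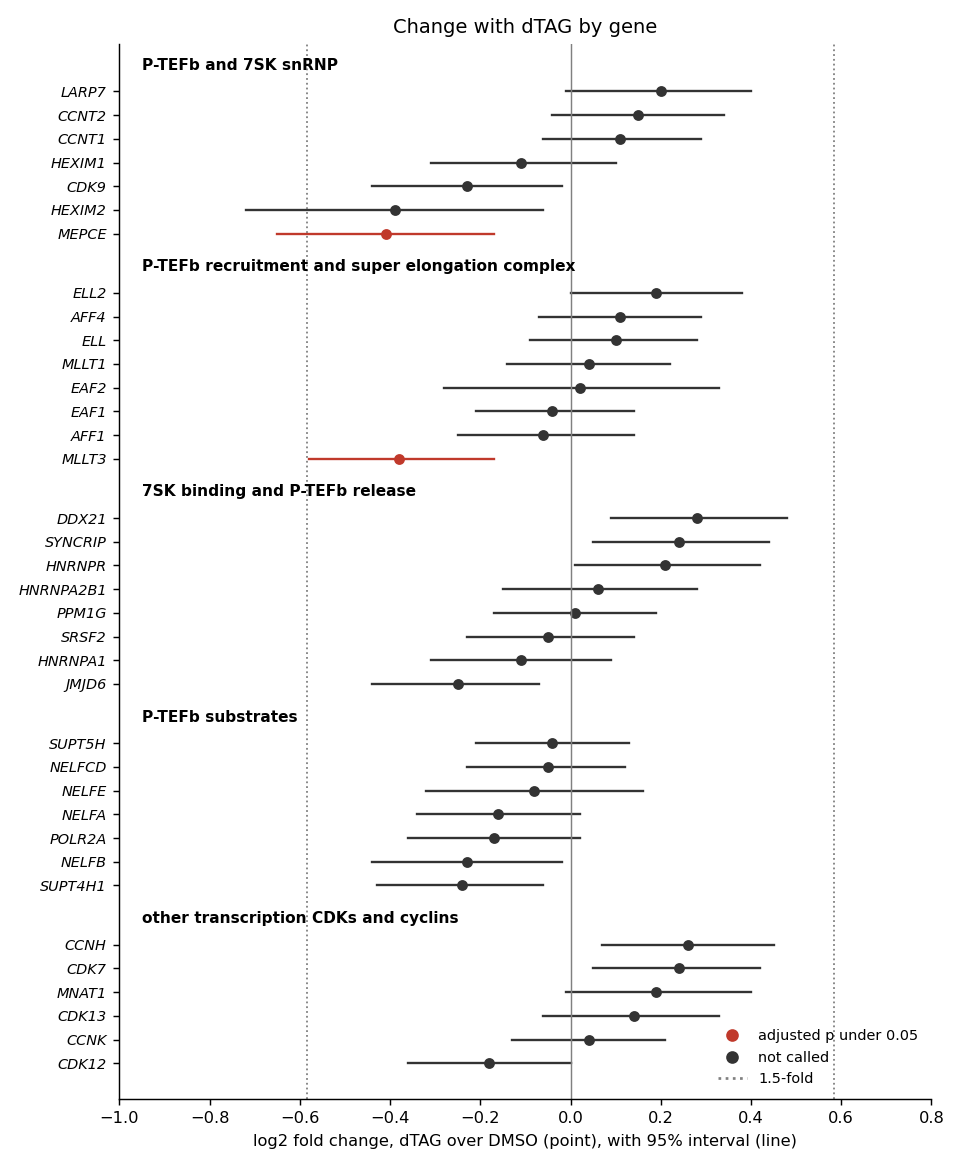
Log2 fold change with dTAG (points) and 95% interval (lines) of the 7 subunit genes and the 29 tested genes of the 4 pathway lists, with dotted lines at 1.5-fold. MEPCE (-0.41) and MLLT3 (-0.38) are in red, with an adjusted p under 0.05 in edgeR.

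For each subunit gene, the tested gene outside these lists with the most similar profile over the 4 libraries was found by Euclidean distance between log2 CPM, each gene's mean subtracted. MEPCE was nearest to H2BC17, a histone H2B gene, at 0.0134, and CDK9 to MBD6 at 0.00953. The GC content of H2BC17 was 59.4% and that of MBD6 57.8%, near those of MEPCE and CDK9. HEXIM1 was nearest to SETD9 (0.0105), a gene of lower GC content (38.6%), HEXIM2 to DISP3 (0.0211), CCNT1 to ZNF2 (0.00841), CCNT2 to RPGRIP1L (0.00398) and LARP7 to HACL1 (0.0116). Such profiles were common. Within a distance of 0.1 lay between 114 genes for HEXIM2 and 1406 for CCNT2, of 12547 compared.

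The settings of the analysis moved the subunit genes as follows. The log2 fold change of MEPCE ran from -0.59 to 0.28 over 15 alternatives, and it was called in 7 of them. These calls include the replicate block with the numbers crossed, a setting chosen after seeing the data. MEPCE stayed called with DESeq2, upper-quartile scaling, the likelihood ratio test and other count minimums, and lost the call with either use of the ERCC RNAs. CCNT1 and HEXIM1 were called in 0 of the 15, at adjusted p-values from 0.11 upward by edgeR or DESeq2. Without DMSO replicate 1, CDK9, CCNT2, HEXIM2, LARP7 and MEPCE were called, and so were 43.5% of all tested genes, with the spread taken from the dTAG libraries alone. Scaling by ERCC totals put all 7 genes above 0, between 0.28 for MEPCE and 0.84 for LARP7, but the median over all tested genes was then 0.633. MEPCE, HEXIM2, CDK9 and HEXIM1 lay below that median and CCNT1, CCNT2 and LARP7 above it. Because this scaling applies the same factor to all genes of a library, these places were largely fixed beforehand and are no separate support.

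**Figure D5:**
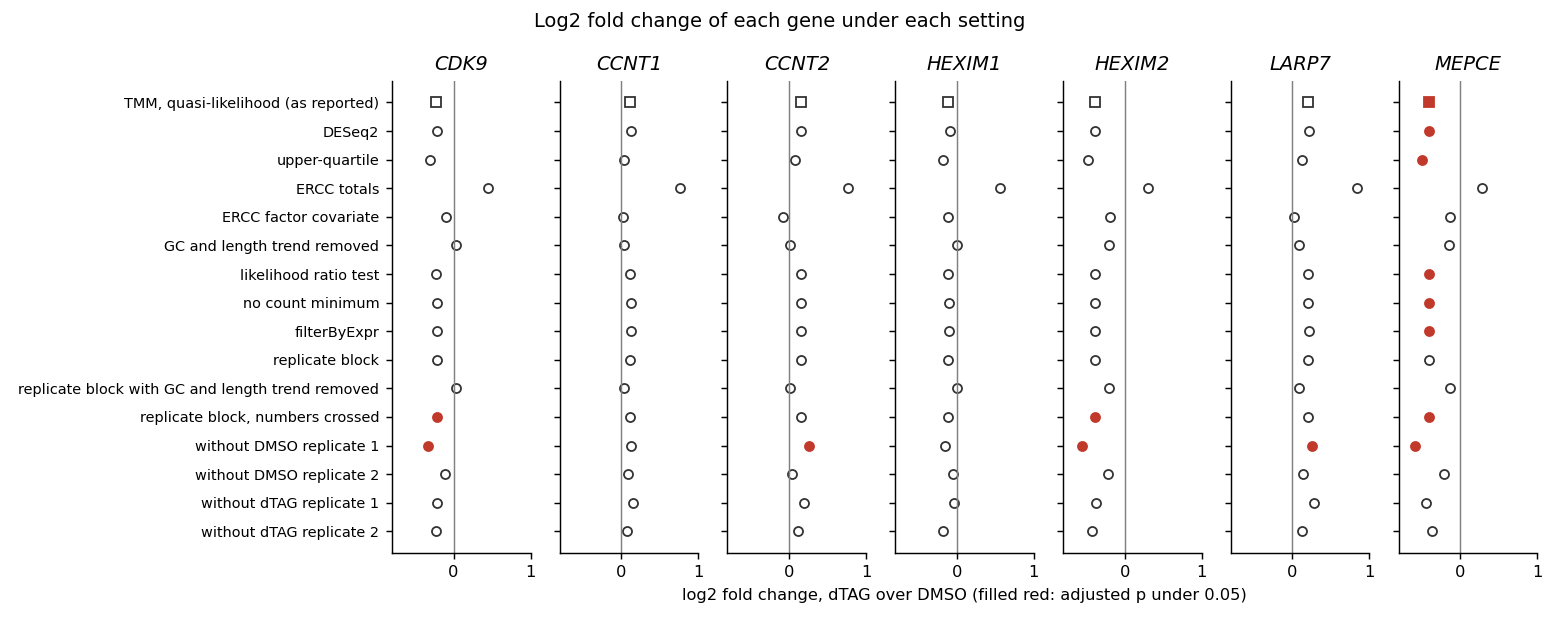
Log2 fold change of each subunit gene (panels) under the reported setting (square) and 15 alternatives (circles), filled red at an adjusted p under 0.05. MEPCE is called in 7 alternatives, between -0.59 and 0.28 over all of them, and without DMSO replicate 1 a total of 5 genes are called. The alternative with replicate numbers crossed was chosen after seeing the data.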

How the data were processed

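TT-Seq libraries of DMSO- and dTAG-treated HCT116 KAP1_dTAG_CloneD5 cells (2 each) were grouped by their treatment label. The authors mapped trimmed reads to hg38 with STAR (Trim Galore 0.6.4), used featureCounts (Subread 1.6.3) over each protein-coding gene from end to end, and deposited raw counts for 19901 genes and 92 ERCC RNAs. Whole-gene counting includes introns, and the strand setting is not given in the sources used here. No count column was left out, and a symbol was found for 19784 genes.

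In R 4.3.3, edgeR 4.0.16 (TMM, quasi-likelihood F test, two-sided, Benjamini-Hochberg adjustment over all tested genes) was run on 12612 genes, those with 50 or more counts in each of the 4 libraries. The study names EDASeq, RUVSeq and edgeR for spike-in normalization but does not state the function, so TMM was the main scaling and ERCC scaling an alternative. With the ERCC factor, the alternative nearest to those tools, MEPCE was at -0.13 and not called (adjusted p 0.45, edgeR). This factor was fitted beside treatment and was -0.047 and 0.8 with DMSO and -0.2 and -0.56 with dTAG. It separated the conditions, so that it can take up part of the difference with dTAG. CPM use TMM-scaled library sizes, and each SD is over 2 libraries. The standard error is the absolute log2 fold change divided by the root of F. The alternatives were DESeq2 1.42.0, upper-quartile scaling, ERCC totals, an ERCC factor from 14 ERCC RNAs, removal of GC and length trends (lowess, span 0.3), a likelihood ratio test, other count minimums, a replicate block and leaving out each library. The replicate block with the numbers crossed between conditions was added after seeing the data. Gene intervals are those of the count table, overlaps are from GENCODE 44, and promoter windows are from RefSeq (GRCh38.p14), in which all 7 genes were found.

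The subunit genes and pathway lists were chosen with earlier results of these data known. The named genes are the 7 subunit genes, TRIM28, each called gene and the highest and lowest value of each pathway list, and each subunit gene's nearest profile. One gene of the pathway lists is not reported here, and list counts leave it out. Further pathway genes were named after their values were seen.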

Additional observations from a re-analysis of the deposited data

How the results depend on the processing

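Precision is that of 2 libraries per condition, and HEXIM2, with the fewest counts, had the largest standard error of the subunit genes (0.159). Of the log2 fold changes of subunit genes under alternatives, 84 kept their direction and side of the threshold, 8 turned sign (MEPCE with ERCC totals also lost its call), 6 gained a call and 7 more lost one. The gains include CDK9 and HEXIM2 with the replicate numbers crossed, a setting chosen after seeing the data. The number of subunit genes called, 1 as reported, was 0 with ERCC totals, the ERCC factor, the GC and length trend removed, the replicate block, and the block with the trend removed, and ran from 0 to 5 without 1 library, at 5 without DMSO replicate 1 and 0 without any other. Pathway genes called, 1 as reported, were 2 with DESeq2, the likelihood ratio test or no count minimum, 4 with upper-quartile scaling, 0 with ERCC totals, 6 with the ERCC factor, 10 with the trend removed, with or without the block, and 0 to 15 without 1 library (15 without DMSO replicate 1, 3 without DMSO replicate 2, and 0 without dTAG replicate 1 or 2). All genes called, 895 as reported, were 0 with ERCC totals (edgeR, 229 at an unadjusted p under 0.05), 2284 with the trend removed, 1593 with the likelihood ratio test, 1417 with no count minimum, 340 with the replicate block, 2637 with the block and the trend removed, and 69 to 5491 without 1 library (5491 without DMSO replicate 1, 1499 without DMSO replicate 2, 138 without dTAG replicate 1, 69 without dTAG replicate 2). The cause of these changes was not tested.

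The labels do not say whether the replicate numbers pair the samples. Deviations of same-numbered libraries from their group means had a correlation of -0.25 over all tested genes, which cannot settle it. With the replicate block, MEPCE was at -0.40 (edgeR, adjusted p 0.078) and the block ended the calls of MLLT3 (-0.37, adjusted p 0.092) and TRIM28 (-0.37, adjusted p 0.059) as well. With the numbers crossed, a setting chosen after seeing the data, 3 subunit genes, 10 pathway genes and 3190 genes in all were called, with CDK9 at -0.22 and HEXIM2 at -0.39.

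ERCC totals apply the same factor to all genes of a library and moved the median over all tested genes to 0.633. A gene's place against that median was thus largely fixed beforehand. Values turned positive for CDK9 (0.45), HEXIM1 (0.56), HEXIM2 (0.30), MEPCE (0.28), MLLT3 (0.24), JMJD6 (0.40), SUPT4H1 (0.41), SUPT5H (0.62), CDK12 (0.47) and TRIM28 (0.28). The sign turned with the ERCC factor for CCNT2 (-0.08), ELL2 (-0.02) and CCNH (-0.0016). With the trend removed it turned for CDK9 (0.03), HEXIM1 (0.0019) and SUPT5H (0.06), and with the block and the trend removed for CDK9 (0.03) and SUPT5H (0.06). SUPT5H ran from -0.09 to 0.01 without 1 library, turning without DMSO replicate 2. MEPCE lost its call at -0.13 with the ERCC factor, -0.14 with the trend removed and -0.13 with the block and the trend removed, and without 1 library was between -0.59 and -0.21. Leaving out 1 library gave -0.33 to -0.11 for CDK9, 0.04 to 0.26 for CCNT2, -0.55 to -0.22 for HEXIM2 and 0.12 to 0.28 for LARP7. These 4 genes gained a call without DMSO replicate 1. The level of CCNT1 was 6.27 CPM per kb without TMM scaling. The change of the log2 ratio of CCNT1 to CCNT2 was between -0.13 and 0.05 without 1 library, turning to 0.05 without DMSO replicate 2.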
